A study of Amphiura filiformis with 28 samples.

Results

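Brittle stars are echinoderms whose arms hold a jointed skeleton of vertebral ossicles, the muscles between them, a radial nerve cord and an outer epidermis. *Amphiura filiformis* regrows lost arms. A severed piece of arm, called an explant, survives on its own and carries a wound at each end, of which the distal one starts to regrow while the proximal one heals, so an explant sets wound closure with and without regrowth beside an uncut middle.

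A set of 60 genes of 30090 in the explant table was chosen by its explant values, as the genes with the lowest expression at both ends relative to the middle. For each gene and day, the larger of the distal and proximal means of log2(value + 1) was subtracted from the medial mean, and the 60 genes with the highest smaller value of the 2 days were taken. Explants from wild-type, untreated animals were dissected into distal, proximal and medial segments at 5 and 3 days post amputation (dpa), and each sample pooled the segments of many explants. There were 3 samples each of distal, proximal and medial segments at 5 dpa, and 4 distal, 3 proximal and 4 medial samples at 3 dpa. A separate time course held 1 pooled sample each of control arm, 48 and 72 h post amputation (hpa), and stages 3, 4 and 5. It also held 1 sample each of the distal, less differentiated, and proximal, more differentiated, ends of regrown arms. Of these regrown arms 50% had differentiated (here 50% distal and 50% proximal). By the methods the control was mature arm tissue without regrowth, although its tissue label names a regenerating explant. The 48 and 72 hpa samples were the last arm segment at the cut, and stages 3 to 5 were the regenerated tissue. The labels do not say whether replicates came from separate cultures, so p-values measure only the spread between these samples. Values are in TPM, a measure of relative transcript abundance, rescaled between samples by the authors, so they are per transcript length, and the sequencing depth behind them is unknown.

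Because the differences between ends and medial segments chose the 60 genes, they are given as a description, without a test. Over the 60 genes, the median difference at 5 dpa was -0.97 for distal minus medial and -0.86 for proximal minus medial on the log2(value + 1) scale, which corresponds to 0.511 and 0.552 of the medial level. At 3 dpa the median difference was -0.72 for distal and for proximal segments alike. The differences between a gene's higher end and the medial segments spanned 0.58 to 1.96 at 5 dpa and 0.58 to 2.32 at 3 dpa, and passed 1 in 9 genes at 5 dpa and in 3 genes at 3 dpa. Differences of low genes are understated on this scale. The smaller of the 2 days was 3 dpa for 41 genes and 5 dpa for 19. Just inside the limit lay AFI21285 and AFI04182, both at 0.58, and just outside lay AFI09907 and AFI33172, also at 0.58, so no gap separates the last genes taken from the first left out. Over all genes, 5625 (18.7%) had a value above 0. Which genes enter also depends on scale and samples: 25 of the 60 were taken again with a pseudocount of 0.1, 36 after rescaling to 1 total per sample, and 34 without medial replicate 2 at 3 dpa. Leaving out the 4 libraries with the most genes listed at 0 kept 23 of the 60.

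**Figure D1:**
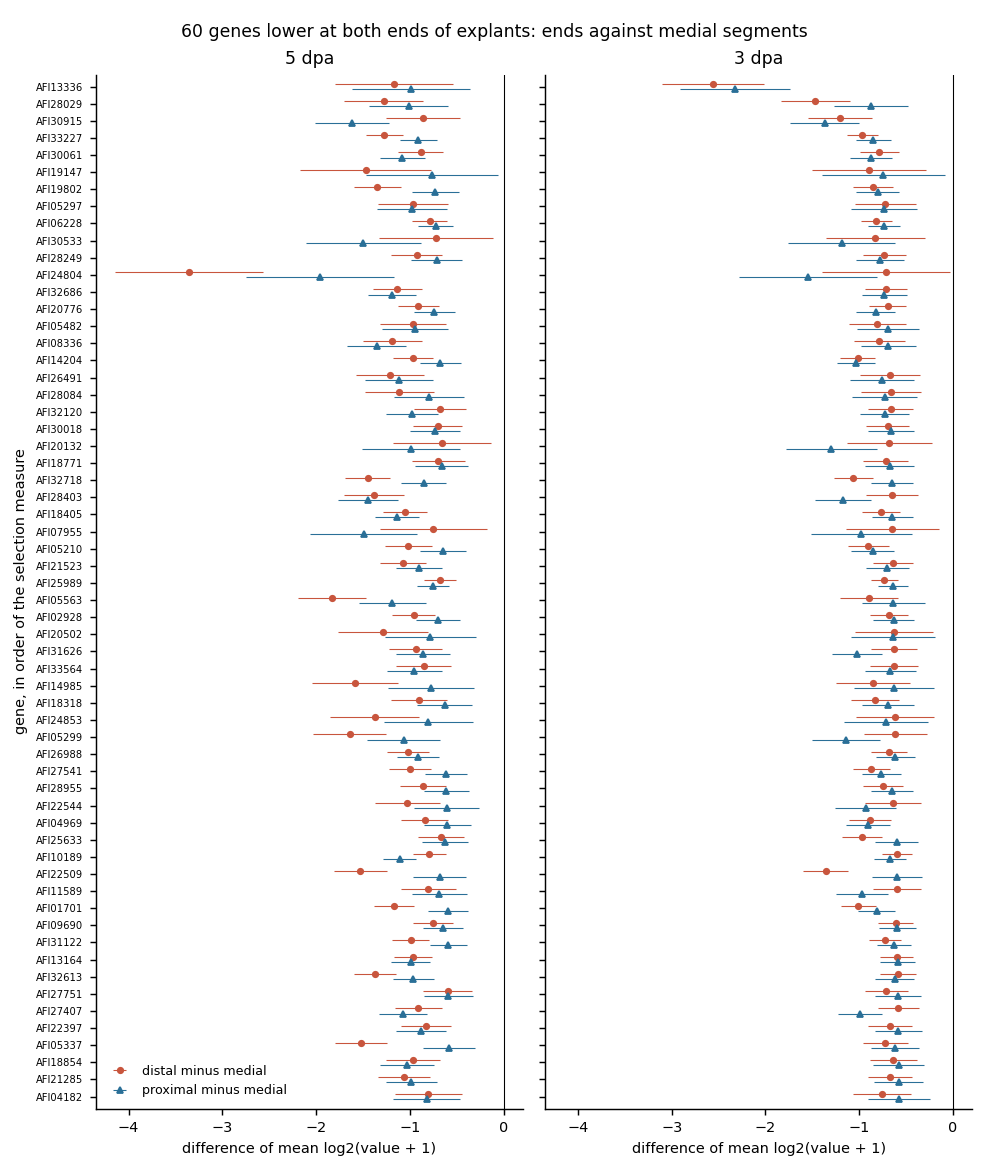
Differences between ends and medial segments for each of the 60 genes, in order of the selection measure from the top, at 5 dpa (left) and 3 dpa (right). The x axes give the difference of mean log2(value + 1), circles distal minus medial and triangles proximal minus medial, with bars for the standard error from limma. All points lie below 0 because the genes were chosen that way, and AFI24804 and AFI13336 reach furthest.

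The genes ranged widely in level. Their medial mean over both days was under 10 TPM in 26 genes, between 10 and 100 in 27 and 100 or more in 7. Means per gene in distal, proximal and medial segments at 5 dpa had medians of 5.05, 5.90 and 11.1 TPM, and at 3 dpa of 7.55, 7.47 and 13.4 TPM. In every sample the mean of log2(value + 1) over the 60 genes was lower at the ends, at 2.77 to 2.97 in distal and 3.02 to 3.14 in proximal against 3.84 to 4.04 in medial segments at 5 dpa, and at 3.09 to 3.53 in distal and 3.26 to 3.39 in proximal against 3.96 to 4.31 in medial segments at 3 dpa. Gene by gene, every medial sample lay above every end sample in 39 genes at 5 dpa (4.39% of the 21442 genes that passed the filter on low values), in 30 at 3 dpa (2.71%) and in 23 on both days (0.704%). Comparing only samples that share a replicate number, medial samples exceeded each end sample in 52 genes at 5 dpa over 5 pairs (11.4% of all genes) and in 46 at 3 dpa over 7 pairs (8.84%), and in 42 genes on both days (3.61%). The same samples chose the 60 genes, so these counts follow from the choice and are no test beside the shares of all genes. Of the replicate numbers compared, only those of proximal and medial samples at 3 dpa were read as paired. All 60 genes passed the filter of at least 1 TPM in at least 3 samples, and 58 would have done so on end samples alone.

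Identifiers are the only names for most of these genes. The part of the study's gene table used here covers chromosome 1 of the study's assembly, with 1193 genes, and holds 3 of the 60, none with a match to a named protein. AFI30061 lies on chromosome 1 from 24472574 to 24484306 on the plus strand and encodes an MFS_1 domain, which marks the major facilitator superfamily of membrane transporters. It had 19.3, 12.0 and 13.8 TPM in distal and 11.4, 13.9 and 12.9 in proximal against 21.0, 35.4 and 29.6 in medial segments at 5 dpa. At 3 dpa it had 17.3, 15.5, 16.2 and 10.9 TPM in distal and 13.996, 19.0 and 9.98 in proximal against 29.7, 22.1, 30.3 and 23.6 in medial segments. End and medial samples did not overlap on either day, with differences at 5 dpa of -0.88 (SE 0.24) distally and -1.08 (SE 0.24) proximally.

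AFI30018 (34685168 to 34719912, plus strand) carries a zf-3CxxC domain, a zinc-binding fold, and was among the most abundant of the 60. Its level was 86.5, 71.2 and 77.6 TPM in distal and 91.0, 70.3 and 70.9 in proximal against 190, 127 and 86.7 in medial segments at 5 dpa. At 3 dpa it was 187, 123, 110 and 80.0 in distal and 132, 120 and 114 in proximal against 220, 175, 207 and 175 in medial segments. The lowest medial sample at 5 dpa fell within the range of the ends, as did a distal sample at 3 dpa within that of medial segments. AFI30915 (49836688 to 49836940, minus strand) is a short gene with no Pfam domain, placed by the study's gene ages at Eleutherozoa, the clade of sea stars, brittle stars, sea urchins and sea cucumbers. It had 1.99, 1.67 and 2.64 TPM in distal and 0.365, 3.42 and 0 in proximal against 2.85, 7.06 and 4.57 in medial segments at 5 dpa. At 3 dpa, where ends and medial samples did not overlap, it had 1.33, 1.52, 3.37 and 1.28 in distal and 1.67, 1.29 and 1.44 in proximal against 4.77, 5.59, 4.85 and 6.37 in medial segments.

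The other genes ranked highest were of low to middling level. AFI13336, first in rank, had 0, 0 and 0.848 TPM in distal and 0, 0 and 1.68 in proximal against 5.33, 0 and 2.30 in medial segments at 5 dpa. At 3 dpa it had 0, 0, 2.54 and 0 in distal and 1.22, 0 and 0.904 in proximal against 4.43, 15.9, 4.77 and 7.02 in medial segments. Its first place therefore rests on a gene listed at 0 in many end samples, and at 5 dpa on medial replicates 1 and 5, since replicate 2 was also at 0. AFI28029, next in rank, had at most 2.62 TPM in the end samples and had 1.32, 4.61 and 5.38 TPM in medial segments at 5 dpa and 2.80, 6.58, 4.43 and 3.54 at 3 dpa.

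AFI33227, at rank 4, kept ends and middle apart on both days. It had 6.36, 4.26 and 4.47 TPM in distal and 5.51, 6.03 and 8.87 in proximal against 11.5, 14.2 and 14.8 in medial segments at 5 dpa. At 3 dpa the values were 6.69, 4.73, 7.11 and 5.66 in distal and 8.10, 6.51 and 5.33 in proximal against 14.3, 11.2, 12.5 and 12.7 in medial segments. The highest end sample of either day was below the lowest medial sample of either day. AFI19802 also did not overlap on either day, with 1.97, 2.53 and 3.98 TPM in distal and 3.94, 5.46 and 4.97 in proximal against 6.23, 11.43 and 8.6002 in medial segments at 5 dpa. AFI05297 separated at 5 dpa, with 4.35, 5.12 and 3.44 TPM in distal and 4.44, 3.07 and 5.43 in proximal against 8.53, 8.49 and 11.1 in medial segments, and overlapped at 3 dpa.

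AFI24804 was by far the most abundant of the 60 genes. At 5 dpa it had 865, 92.2 and 134 TPM in distal and 343, 847 and 678 in proximal against 2033, 1881 and 3049.7 in medial segments. At 3 dpa it had 1481, 973, 1278 and 161 in distal and 515, 552 and 248 in proximal against 1378, 1745, 503 and 1779 in medial segments. The ends and the middle were apart at 5 dpa and overlapped at 3 dpa, and within the distal segments the highest and lowest samples differed several-fold on each day.

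AFI19147 showed a pattern that follows replicate numbers. At 3 dpa, replicates 1 and 4 had 18.0 and 26.4 TPM in distal segments, replicate 4 had 28.5 in proximal, and replicates 1 and 4 had 36.3 and 45.9 in medial segments, while replicates 2 and 3 had 4.16 and 4.90 in distal, 6.27 and 8.15 in proximal and 7.79 and 11.5 in medial segments. The groups overlapped, yet each medial sample exceeded the end samples of its own number. At 5 dpa it had 2.72, 2.497 and 1.82 TPM in distal and 5.57, 5.51 and 2.73 in proximal against 16.6, 8.595 and 3.65 in medial segments. AFI20132 deviated from its group means together with AFI19147 (Pearson r = 0.80 across the 20 explant samples, given as a description). Among the 60 genes the r of these deviations ranged widely. Over 1770 pairs it had a median of 0.13 and a range of -0.88 to 0.90, and 218 pairs exceeded 0.5. The highest was between AFI24804 and AFI05299. These pairs share libraries and normalization, and no like value over all genes was computed beside them.

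**Figure D2:**
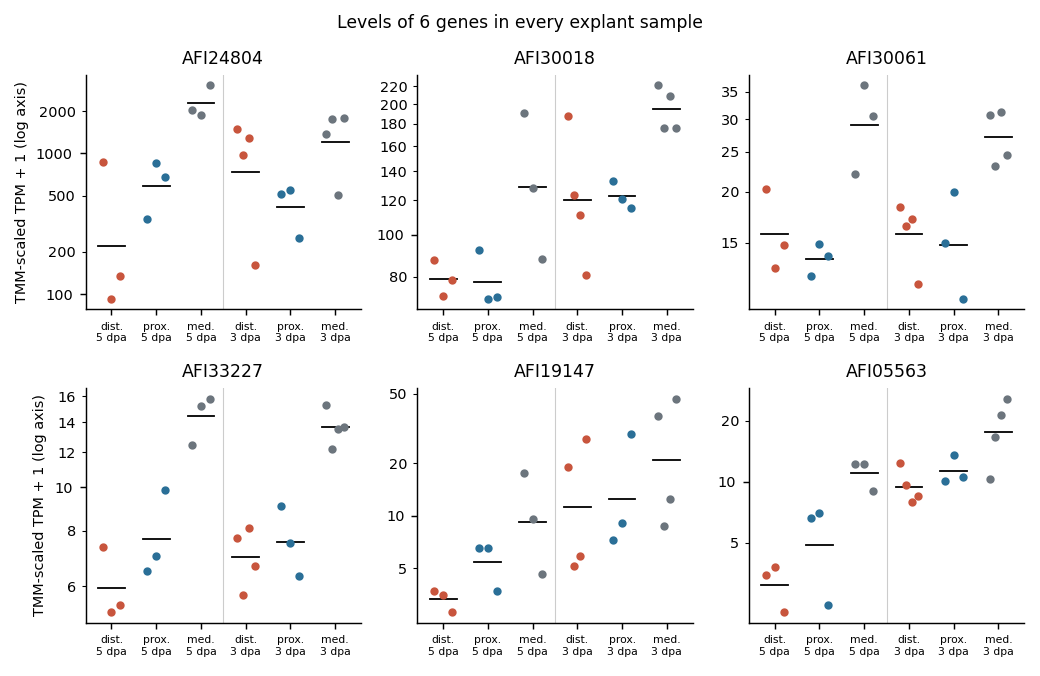
TMM-scaled TPM plus 1 on log axes for 6 of the genes in every explant sample, with distal, proximal and medial segments at 5 dpa left of those at 3 dpa. Points are samples and bars are means of log2(value + 1); AFI33227 and AFI30061 keep ends and middle apart on both days, whereas AFI24804 and AFI19147 overlap at 3 dpa.

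The ends were also set against each other, with limma on all 20 explant samples and p-values adjusted over 21442 genes. The choice used both end means and required both to be low, so these values are a description and the number of calls does not show how alike the ends are. At 5 dpa none of the 60 genes was called between distal and proximal segments (adjusted p under 0.05 and a log2 difference over 1; 1.41% of all genes), with 5 lower and 0 higher in distal segments at an unadjusted p under 0.05 (lower: 7.45% of all genes, higher: 6.85%). At 3 dpa there was again none (0.322% of all genes), with 1 lower and 0 higher at the unadjusted level (4.86% and 4.37%). The median of distal minus proximal was -0.11 at 5 dpa, where 40 of 60 genes were below 0 (46.3% of all genes), and -0.04 at 3 dpa, where 33 were (50.9%). AFI05337, singled out after its values were seen, had 18.4, 9.14 and 11.5 TPM in distal against 19.96, 23.1 and 33.0 in proximal segments at 5 dpa (-0.94, SE 0.28). Its distal samples all lay below its proximal ones. AFI22509 had 4.60, 4.57 and 8.22 TPM in distal against 12.0, 8.82 and 12.1 in proximal segments at 5 dpa (-0.85, SE 0.28), and 9.27, 17.5, 11.3 and 12.8 against 21.0, 18.8 and 26.1 at 3 dpa (-0.76, SE 0.26). The groups did not overlap on either day. Leaving out single libraries gave 1 call at 5 dpa in 3 cases, those without distal replicate 1, proximal replicate 4 and proximal replicate 5.

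The levels of the ends and of the middle at 5 dpa were set against those at 3 dpa with the same fit. The same values chose the genes, the smaller difference being that of 3 dpa in 41 of them, so what follows is a description as well. In distal segments 4 of the 60 genes were called lower at 5 dpa and none higher (lower: 0.336% of all genes, higher: 0.499%), and 51 of 60 were below 0 (53.0% of all genes) with a median of -0.34, against -0.03 over all genes. In proximal segments none was called (0.0979% of all genes), with 11 lower and 2 higher at an unadjusted p under 0.05 (7.98% and 6.58% of all genes), 41 below 0 (54.0%) and a median of -0.20. In medial segments none was called either (0.00466% of all genes, a single one), with 8 lower and 1 higher at the unadjusted level (6.06% and 5.48%), 34 below 0 (52.5%) and a median of -0.08. In all 3 segments together, 32 genes were below 0 (27.3% of all genes). Another 7 were above 0 in all 3, for which no share over all genes was computed. For the distal difference between days minus the proximal one there was no call (0.00466%), with 1 lower and 0 higher at an unadjusted p under 0.05 (1.77% and 2.22%).

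The 4 genes called in distal segments also had lower means at 5 dpa in the other segments. AFI28955 had 1.18, 0.958 and 0.784 TPM in distal segments at 5 dpa against 6.05, 4.29, 3.58 and 2.40 at 3 dpa (-1.32, SE 0.23). The difference was -1.16 (SE 0.24) in proximal and -1.20 (SE 0.23) in medial segments. Distal samples of the 2 days did not overlap, and the sizes in the 3 segments lay within 1 SE of each other.

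AFI05563 had 2.46, 2.79 and 1.28 TPM in distal segments at 5 dpa against 11.4, 8.66, 6.92 and 7.52 at 3 dpa (-1.61, SE 0.33). The same difference was -1.22 (SE 0.36) in proximal and -0.67 (SE 0.33) in medial segments. AFI21285 had 0.190, 0.720 and 0.657 TPM at 5 dpa against 3.20, 2.66, 2.17 and 2.17 at 3 dpa in distal segments (-1.23, SE 0.26), with differences of -1.25 (SE 0.28) in proximal and -0.84 (SE 0.26) in medial segments. All distal samples of AFI05563 and AFI21285 at 5 dpa lay below those at 3 dpa. AFI20132 had 0.0684, 1.11 and 0.900 TPM in distal segments at 5 dpa against 8.28, 2.80, 5.74 and 10.95 at 3 dpa (-2.17, SE 0.49). The difference was -1.88 (SE 0.52) in proximal and -2.19 (SE 0.49) in medial segments. Without distal replicate 1 of either day, 1 of the 4 calls was left.

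**Figure D3:**
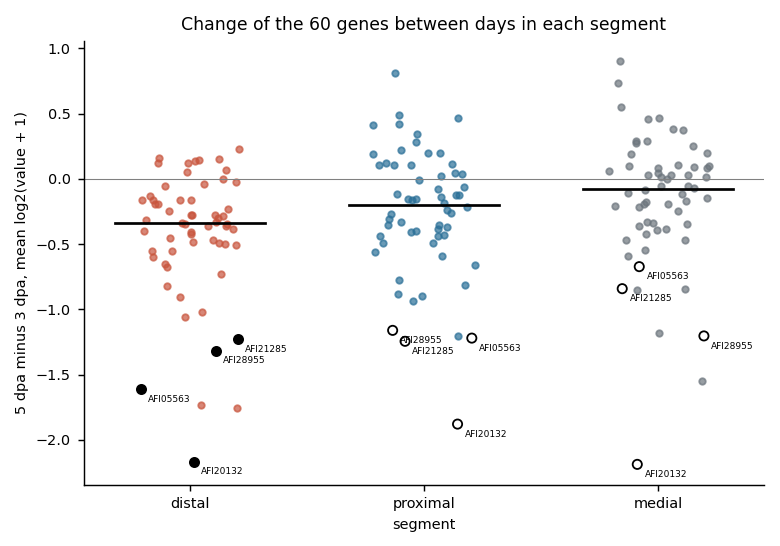
Difference between days, as mean log2(value + 1) at 5 dpa minus 3 dpa, for the 60 genes in distal, proximal and medial segments. Each point is a gene and bars are medians (-0.34, -0.20 and -0.08); filled black points are the 4 genes called in distal segments, and open points are the same genes in the other segments.

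To read the ends against the middle in samples that had no part in the choice, 60 genes were chosen at 3 dpa alone by the same measure and compared at 5 dpa, and 60 were chosen at 5 dpa alone and compared at 3 dpa. The 2 sets shared 2 genes, and held 19 and 5 of the 60 genes lower on both days. Both ends are compared with the same medial samples. Of the genes chosen at 3 dpa, 58 passed the filter. In distal against medial segments at 5 dpa, 6 of these fell and none rose (lower: 0.872% of all genes, higher: 422 of 21442 genes). Below 0 were 48 (49.2% of all genes), with a median of -0.71. In proximal against medial segments none passed (0 of 21442 genes were called lower and 29 higher). At an unadjusted p under 0.05 in limma 14 were lower and 3 higher (lower: 5.998% of all genes, higher: 8.11%). In these segments 38 were below 0 (50.4%), with a median of -0.30.

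The 6 genes included 4 of the 60 lower on both days. Since the 5 dpa values also helped choose the 60, this overlap follows in part from that choice. The p-values below belong to the genes as chosen at 3 dpa alone, and are no test of the 60. AFI24804, with the values above, differed by -3.35 (SE 0.70, limma adjusted p = 0.033), AFI33227 by -1.27 (SE 0.23, limma adjusted p = 0.022), AFI19802 by -1.35 (SE 0.27, limma adjusted p = 0.028) and AFI01701 by -1.17 (SE 0.24, limma adjusted p = 0.031). AFI01701 had 17.6, 13.6 and 20.6 TPM in distal against 35.01, 38.1 and 46.3 in medial segments at 5 dpa, without overlap. The other 2, AFI16009 (-2.19, SE 0.43, limma adjusted p = 0.027) and AFI17678 (-1.61, SE 0.31, limma adjusted p = 0.027), were not among the 60. This count was unstable. It was 0 without distal replicate 2 or medial replicate 2 of 5 dpa, 1 without distal replicate 1 or medial replicate 5, 2 without distal replicate 5, and 3 when medial replicate 1 or 4 of 3 dpa was left out of the choice. The count was also 0 with a pseudocount of 0.1 and 1 with no filter on low values.

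Of the genes chosen at 5 dpa, 58 passed the filter. None was called at 3 dpa in distal segments (lower: 0.336% of all genes, higher: 384 of 21442 genes). None was called in proximal segments either (lower: 0.0373%, higher: 121 genes). With no limit on size, 8 were lower in distal segments at an adjusted p under 0.05 (5.80% of all genes) and 2 in proximal segments (0.275%), and at an unadjusted p under 0.05 in limma 14 were lower and 4 higher at either end (distal: 13.05% of all genes lower and 14.3% higher, proximal: 6.26% and 10.3%). These counts of 0 were unstable too: with the replicate number as a block 1 gene was called at each end, and 14 alternatives gave 1 or 2 calls in distal and 6 gave 1 in proximal segments. The median was -0.27 with 37 below 0 (49.3% of all genes) for distal and -0.18 with 39 below 0 (47.4%) for proximal segments. Among the 8 were 3 of the 60 genes: AFI08336 (-0.78, SE 0.15, limma adjusted p = 0.0056), AFI32686 (-0.71, SE 0.19, limma adjusted p = 0.027) and AFI05563 (-0.89, SE 0.25, limma adjusted p = 0.036). These values come from the fit without the replicate block. Since the 3 dpa values also helped choose the 60, the overlap of 3 genes follows in part from that choice. The p-values belong to the genes as chosen at 5 dpa alone, and are no test of the 60.

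The time course had no part in the choice of genes, and holds 59 of the 60, since AFI26491 has no values in the table used here. With 1 sample per stage, no difference has a replicate check. The column totals of this table also range from 551379 at 50% proximal to 1866500 at stage 3, so counts are given as deposited and after rescaling to 1 total per sample. As deposited, the mean of stages 3 to 5 was lower than the control by over 1 on the log2(value + 1) scale in 28 genes (16.1% of 21325 genes) and higher in 2 (12.0%), with a median of -0.98 against 0.02 over all genes. After rescaling the counts were 19 lower (9.94% of all genes) and 2 higher (13.2%), with a median of -0.59 against 0.11. Against the mean of 48 and 72 hpa, stages 3 to 5 were lower in 19 genes (9.82%) and higher in 1 (5.78%), and after rescaling in 29 (20.8%) and 0 (1.35%). The median of the 59 genes in stages 3 to 5 was thus below the control and below that of all genes under both scalings. Control, 48 and 72 hpa were arm segments and stages 3 to 5 regenerated tissue, so stage and dissected tissue cannot be told apart. Of the 59, 43 genes had their minimum, alone or tied, within stages 3 to 5 (47.6% of all genes), and 24 were listed at 0 at stage 3 (20.04%).

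The comparison of 48 and 72 hpa with the control turned with the scaling. As deposited, the mean of 48 and 72 hpa was lower by over 1 in 15 genes (10.5% of all genes) and higher in 4 (9.71%), with a median of -0.45 against 0.08 over all genes, and after rescaling it was lower in 5 (2.10%) and higher in 12 (28.3%), with a median of 0.38 against 0.52. The same held at 50% proximal against the control, with 17 lower (13.2%), 5 higher (10.1%) and a median of -0.51 as deposited, and 3 lower (3.80%), 13 higher (35.03%) and a median of 0.42 after rescaling. In both cases the median of the 59 genes was below that of all genes under either scaling. Against stages 3 to 5, 50% proximal was higher in 20 genes (6.90%) and lower in 1 (5.43%), and after rescaling in 28 (24.2%) and 1 (0.408%). It was higher than 50% distal in 13 genes (4.75%) and lower in 2 (3.55%), and after rescaling in 26 (14.9%) and 0 (0.596%).

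As deposited, the sample with the highest value was the control for 28 of 59 genes (23.4% of all genes), 48 hpa for 8 (13.4%), 72 hpa for 7 (10.5%) and 50% proximal for 8 (12.2%). Stages 3, 4 and 5 were highest for 1 (11.8%), 2 (10.7%) and 3 genes (9.94%), and 50% distal for 2 (8.02%). After rescaling the control was highest for 6 genes (5.71%), 48 hpa for 14 (14.6%), 72 hpa for 13 (26.5%) and 50% proximal for 23 (35.7%), with 2 at stage 5 (11.2%), 1 at 50% distal (3.74%) and none at stages 3 (1.34%) and 4 (1.25%).

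**Figure D4:**
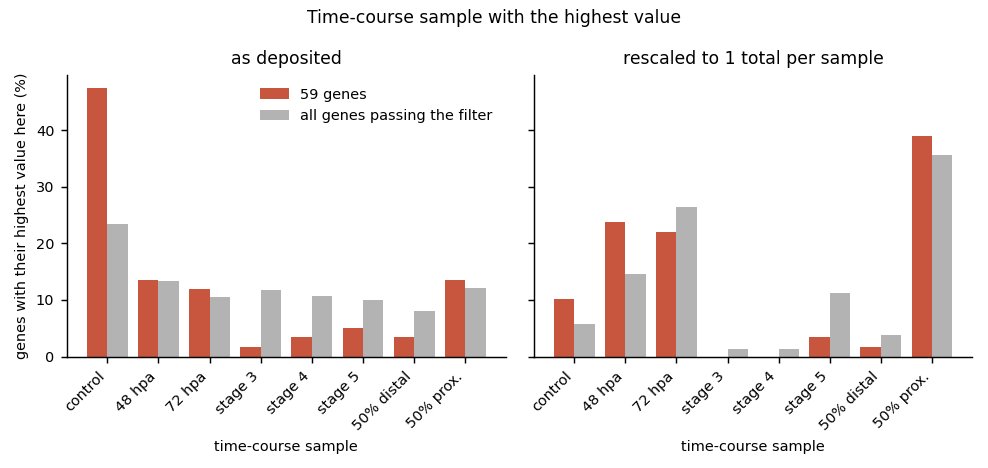
Percentage of genes whose highest time-course value falls in each sample, for the 59 genes and for all genes passing the filter, with values as deposited (left) and rescaled to 1 total per sample (right). The control leads for the 59 genes as deposited, with 28 genes, and 50% proximal leads after rescaling, with 23 genes.

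AFI24804, the most abundant of the 60 genes in medial segments, was again abundant in the control, and listed at 0 in 5 of the other samples. Its level was 301 TPM in control arm, was listed at 0 at 48 hpa, had 25.2 at 72 hpa, was listed at 0 at stages 3, 4 and 5 and at 50% distal, and had 131 at 50% proximal. AFI05299, which varied with it across explants, had 42.5 TPM in the control, 9.69 and 12.1 at the early times of 48 and 72 hpa, 1.88, 0.884 and 3.71 at stages 3, 4 and 5, 13.4 at 50% distal and 46.0 at 50% proximal. Both were thus high in the control and at 50% proximal, and low at stages 3 to 5. AFI27407 had 29.9 TPM in the control, 2.16 and 8.96 at 48 and 72 hpa, 0, 0 and 4.44 at stages 3, 4 and 5, 4.27 at 50% distal and 16.4 at 50% proximal.

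AFI18854 and AFI07955 were highest in the control under both scalings, and as deposited did not return at 50% proximal. AFI18854 had 143 TPM in the control, 31.6 and 34.2 at 48 and 72 hpa, 57.5, 29.4 and 40.5 at stages 3, 4 and 5, 37.1 at 50% distal and 26.4 at 50% proximal. AFI07955 had 19.96 TPM in the control and at most 4.79, at stage 3, in the other samples. After rescaling, AFI18854 had 44.2 at 50% proximal, above its 28.5, 18.9 and 43.1 at stages 3, 4 and 5 but below 75.8 in the control. Rescaled values of AFI07955 were 4.82 at 50% proximal, at most 2.37 at stages 3 to 5 and 10.6 in the control. AFI30018, the zf-3CxxC gene, had 34.8 TPM in the control, 31.0 and 31.3 at 48 and 72 hpa, 13.2, 11.7 and 18.9 at stages 3, 4 and 5, 16.4 at 50% distal and 24.6 at 50% proximal. The transporter-like AFI30061 had 1.98 TPM in the control and at most 0.415 in every regenerating sample. As deposited both were lower at stages 3 to 5 than in the control. After rescaling AFI30018 at stage 5 was above the control, at 20.1 against 18.5, and was highest at 72 hpa.

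AFI20502 and AFI22509 were highest at 72 hpa under both scalings. AFI20502 had 72.4 TPM in the control, 107 and 109 at 48 and 72 hpa, 65.6, 41.5 and 64.7 at stages 3, 4 and 5, and 9.23 and 10.6 at 50% distal and 50% proximal. AFI22509 had 5.41 TPM in the control, 8.30 and 14.3 at 48 and 72 hpa, 0, 0.0966 and 0 at stages 3, 4 and 5, 0.492 at 50% distal and 3.49 at 50% proximal. The early samples exceeded the control in both genes as deposited.

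The 4 genes called lower in distal segments at 5 dpa had their highest value at 48 or 72 hpa as deposited, and AFI28955 had it at 50% proximal after rescaling. AFI20132 had 10.7 TPM at 48 hpa against 2.03 in the control and at most 1.70 elsewhere. AFI05563 had 7.68 TPM in the control, 9.88 and 7.19 at 48 and 72 hpa, was listed at 0 at stages 3, 4 and 5 and at 50% distal, and had 2.92 at 50% proximal. AFI28955 had 2.498 TPM at 48 hpa and at most 0.172 at stages 3 to 5, and AFI21285 had 1.37 TPM at 72 hpa and at most 0.0134 at stages 3 to 5. AFI28403 went against these patterns, with 10.5 TPM in the control, 9.97 and 4.75 at 48 and 72 hpa, 9.26, 5.61 and 13.4 at stages 3, 4 and 5, 12.4 at 50% distal and 5.67 at 50% proximal. The short gene AFI30915 was listed at 0 in the control and had 3.71 and 1.75 TPM at 48 and 72 hpa.

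**Figure D5:**
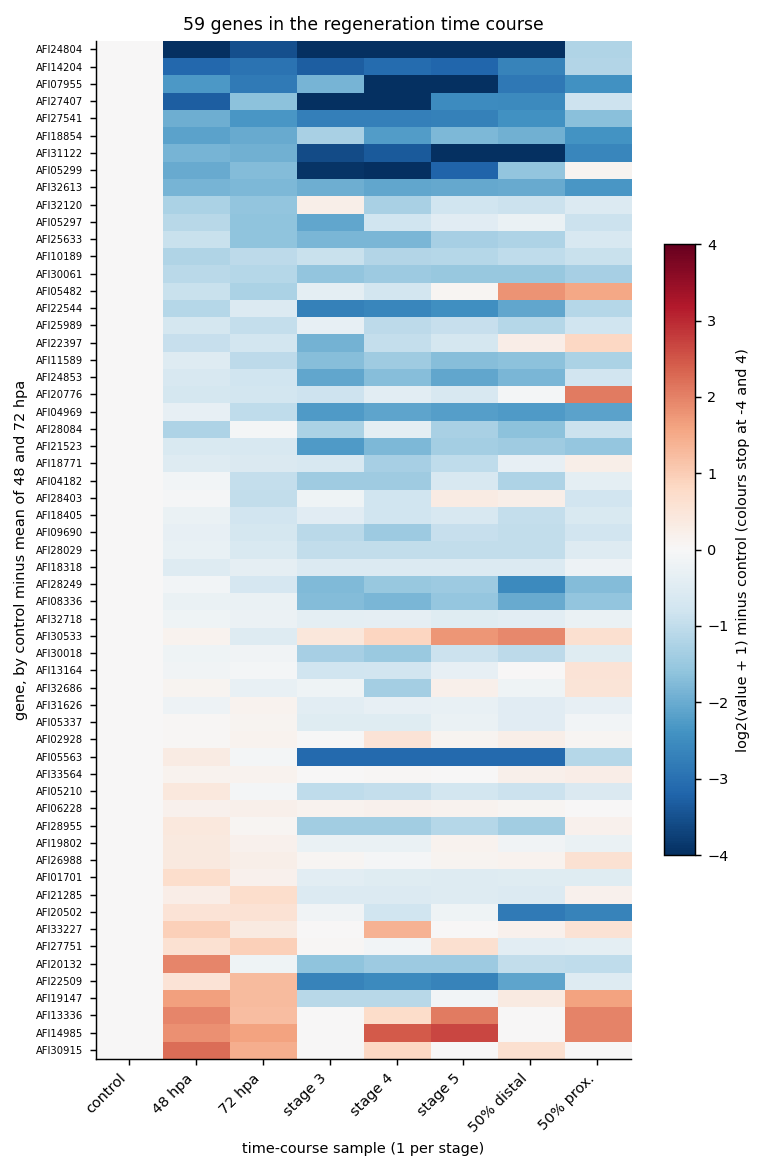
Heat map of the 59 genes in the time course, as log2(value + 1) minus the control on the deposited scale, with genes ordered by control minus the mean of 48 and 72 hpa. Samples run from control to 50% proximal, with 1 sample per stage; blue marks values below the control, which fill most of stages 3 to 5, where 28 genes were lower by over 1.

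Several of the genes ranked much lower among all genes in the time course than in medial explants. The 2 tables were normalized separately, so ranks within each table are set side by side without a test, and the medial values took part in the choice. The median percentile of the genes by level was 81.4 in medial explants and 68.5 by the time-course maximum, and 12 of 59 genes were over 30 percentile points lower (5.06% of all genes). AFI05337 averaged 40.1 TPM in medial explants (percentile 92.2) and reached 0.518 TPM in the time course (percentile 13.7). AFI32718 averaged 11.8 TPM in medial explants (percentile 79.2) and reached 0.446 TPM (percentile 11.01). AFI22544, singled out after its values were seen, averaged 453 TPM in medial explants and reached 6.59 TPM in the control arm. In 9 of the 59 genes the time-course maximum was under 1 TPM. It was at least 1 TPM in the other 50, and in 15047 of all 21325 genes. Such low maxima were thus no more frequent in the 59 genes than over all genes.

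The 3 genes outside the 60 that followed the mean of the 60 most closely across the 20 explant samples, among genes with a mean of at least 10 TPM, were AFI23767 (Pearson r = 0.96), AFI15026 (r = 0.93) and AFI08948 (r = 0.92), at ranks 90, 185 and 76 of the selection measure. AFI23767 averaged 29.4 TPM in distal and 34.1 in proximal against 75.1 in medial segments at 5 dpa, and 38.8 in distal and 43.9 in proximal against 64.1 in medial segments at 3 dpa. The samples share libraries and the likeness reflects the same contrast, so r is a description.

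Genes with protein names could be read only on chromosome 1 and outside the 60. The 6 named genes there that ranked highest by the same measure, from rank 81 down, were Acha6-7 (AFI31791, 48682780 to 48696714), like a subunit of the nicotinic acetylcholine receptor, Coca1-3 (AFI31984, 40202906 to 40218932), like a collagen chain, Sia8e-4 (AFI31179, 46823297 to 46837150), like a sialyltransferase, Test-5 (AFI29893, 4811235 to 4881970), like a serine protease, Cpeb2 (AFI29889, 51788029 to 51816849), like an RNA-binding regulator of translation, and Haox1-17 (AFI30213, 10315776 to 10325812), like a hydroxyacid oxidase. Acha6-7 had 80.6, 48.5 and 75.1 TPM in distal and 115, 174 and 129 in proximal against 136, 243 and 246 in medial segments at 5 dpa, so its distal samples lay below all others of that day while a proximal sample lay within the medial range. Coca1-3 had 11.4, 12.1 and 14.7 TPM in distal and 15.8, 24.7 and 18.9 in proximal against 43.9, 30.6 and 21.7 in medial segments, and only its distal samples were apart. In the time course, Acha6-7 had 50.8 TPM in the control, 4.57 and 4.85 at 48 and 72 hpa, at most 0.316 at stages 3 to 5 and at 50% distal, and 16.9 at 50% proximal.

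Lists of marker genes named on chromosome 1 were read beside the 60 genes, since in pooled tissue fewer cells of a type and less RNA per cell cannot be told apart. Of 11 extracellular matrix genes, 6 passed the filter, and 3 fell in distal against medial segments at 5 dpa (2.05% of all genes): Coca1-3 (-1.22, SE 0.23, limma adjusted p = 0.0018), the collagen-like Cola1 (-1.03, SE 0.24, limma adjusted p = 0.0071) and Agrin-17 (-1.32, SE 0.29, limma adjusted p = 0.0052). None passed in proximal segments at 5 dpa (0.438% of all genes called lower), or at 3 dpa in distal (0.284%) or proximal segments (0.00933%). Their summed level, over the whole list, was 28.1 to 40.1 TPM in distal and 41.8 to 57.4 in proximal against 59.5 to 87.0 in medial segments at 5 dpa, and 45.1 to 63.3 in distal and 59.1 to 68.2 in proximal against 76.7 to 91.6 in medial segments at 3 dpa. The summed level at the ends did not overlap that of the middle on either day. Coca1-3 and Cola1 hold most of the sum, at means of 24.9 and 15.5 TPM over all explant samples, and proximal and medial samples of Coca1-3 overlapped at 5 dpa. Coca1-3 itself ranked 83 by the selection measure, and the lists were chosen with earlier results of these data known. The part of the extracellular matrix genes in the difference of the 60 was not tested.

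Of 13 neuron genes 11 passed the filter, of 11 ciliated cell genes 10 and of 4 muscle genes 3, and none of these was called at either end on either day. The neuron list summed to 96.8 to 118 TPM in distal and 97.2 to 116 in proximal against 105 to 122 in medial segments at 5 dpa. The muscle list summed to 5.09 to 7.45 TPM in distal and 6.38 to 12.6 in proximal against 6.29 to 14.2 in medial segments at 5 dpa. These ranges overlapped. The ciliated cell list went the other way, at 57.7 to 67.0 TPM in distal and 48.9 to 63.3 in proximal against 39.8 to 43.8 in medial segments at 5 dpa, with overlap at 3 dpa. The 5 translation genes summed to 25868 to 43138 TPM in distal and 16998 to 69722 in proximal against 14419.6 to 25358 in medial segments at 5 dpa, where proximal and medial samples overlapped and no gene was called. The part of any of these lists in the result was not tested. The neuronal marker Elav4 averaged 49.0 TPM over all explant samples, so nerve tissue was present, while the muscle genes of this chromosome averaged at most 4.03 TPM (Actc-13).

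Libraries differed in ways that the groups do not explain. Genes listed at 0 numbered 1990 to 3976 in 16 of the explant libraries and 4660 to 7439 in distal replicate 1, proximal replicate 4 and medial replicate 2 of 5 dpa and medial replicate 2 of 3 dpa. Column totals ran from 1024512 to 2976429, with proximal replicate 4 of 5 dpa the highest. No 2 explant libraries were alike beyond a Pearson r of 0.98.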

How the data were processed

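RNA-seq values of 20 explant samples and 8 time-course samples were used. The authors quantified reads against the gene models with kallisto and deposited TPM rescaled between samples by TMM, a normalized signal; the methods name TMM for the time course, and its use on the explants is read from the table's own label. TPM keeps no depth, so no counting error could be given. Groups came from the labels. The study tested its groups by DESeq2 on counts, which were not analysed here. Genes and lists were chosen with earlier results of these data known.

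Explant values were fitted as log2(value + 1) with limma (3.58.1, R 4.3.3) with trend over 6 groups. Genes needed 1 TPM or more in 3 or more samples, and p-values were adjusted by Benjamini–Hochberg over 21442 genes. Differences between the ends and between the days were planned as tests, but use the samples that chose the genes and are given as descriptions. Genes chosen on 1 day were fitted on the 9 or 11 samples of the other. A call needed an adjusted p under 0.05 and an absolute difference over 1. The fit was tested on simulated data. Tables and figures used Python 3.11.15, numpy 2.4.6, pandas 2.3.3 and matplotlib 3.10.9.

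Genes named are those on chromosome 1, the 8 ranked first, the called genes, those nearest the limit, the 3 at each extreme of 48 and 72 hpa against control and of 50% proximal against stages 3 to 5 with a maximum of at least 10, the 6 named neighbours on chromosome 1, the 3 genes most alike, and others where stated. Alternatives were a pseudocount of 0.1, other filters, rescaling to 1 total or by the median of ratios, fits on the compared groups alone, the replicate block and each library left out, and, chosen after seeing the data, leaving out 4 libraries with over 4500 genes at 0. Replicate numbers come from sample titles. At 3 dpa, deviations from group means correlated in every same-numbered pair of distal and proximal (0.17 to 0.32) and of proximal and medial segments (0.18 to 0.40), so these numbers were read as paired. Other combinations held a pair under 0.1 or fewer than 3 pairs. The main fits left the replicate number out, and its use as a block is given as an alternative. RefSeq names of the species could not be matched to these identifiers, so no sequence is shown.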

Additional observations from a re-analysis of the deposited data

Results flagged for a closer look

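Among the genes named, 44 groups of 4 samples were examined for a sample far from the others, and chance alone marks about 1 in 20 such groups. In distal segments at 3 dpa, AFI13336 had 2.54 TPM in its highest sample while the other 3 were listed at 0. In the same group of samples, AFI30915 had 3.37 TPM in its highest sample against 1.28 to 1.52 in the others. Both highest values came from distal replicate 3, and both genes are of low level.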

How the results depend on the processing

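Of the 60 genes, 25 were chosen again with a pseudocount of 0.1, 36 after rescaling to the same total and 23 without the 4 libraries with most genes at 0, and 34 to 60 with 1 library left out. Leaving out 1 library gave 0 calls for distal against proximal at 3 dpa and for the difference of changes between ends, 0 to 1 for distal against proximal at 5 dpa, 0 to 1 for medial, 1 to 6 for distal and 0 to 2 for proximal segments at 5 against 3 dpa. For genes chosen at 3 dpa it gave 0 to 9 in distal and 0 to 1 in proximal segments, and for genes chosen at 5 dpa 0 to 2 and 0 to 1. Without the 4 libraries there was 1 call for distal against proximal at 5 dpa, 0 for genes chosen at 3 dpa in distal segments and 2 for genes chosen at 5 dpa in distal segments. The same total gave 2 calls in proximal segments between days, and 1 at each end for genes chosen at 5 dpa. A pseudocount of 0.1 gave 0 for genes chosen at 3 dpa and 2 for genes chosen at 5 dpa, both distal, no filter gave 1 for the first, and a filter at 5 gave 1 for genes chosen at 5 dpa in proximal segments. Calls lower in the marker lists were 5 with the same total or a pseudocount of 0.1. The cause was not tested.

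The replicate block, read as paired only at 3 dpa for proximal segments, gave 1 call in distal and 1 in proximal segments for genes chosen at 5 dpa, 9 for genes chosen at 3 dpa in distal segments, and changed no other count by over 1.5 times.

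In the time course, a pseudocount of 0.1 gave 8 higher and 24 lower for 48 and 72 hpa minus control, 5 higher for stages 3 to 5 minus control, 3 higher and 34 lower for stages 3 to 5 minus 48 and 72 hpa, and 34 higher and 4 lower for 50% proximal minus stages 3 to 5. The same total gave 12 and 5 in the first and 0 and 29 in the third, and its medians against control turned to 0.38 at 48 and 72 hpa and 0.42 at 50% proximal. The median of ratios gave 1 higher for stages 3 to 5 minus control. Depth is unknown, and differences of genes near 0 depend on the pseudocount.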
